A study of Mus musculus with 10 samples.

Results

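The semaphorins, plexins and neuropilins are a family of guidance ligands and their receptors, and 31 of their genes were followed here in mouse tumours labelled as melanoma. They are 20 semaphorins (Sema3a to Sema3g, Sema4a to Sema4d, Sema4f, Sema4g, Sema5a, Sema5b, Sema6a to Sema6d and Sema7a), 9 plexins (Plxna1 to Plxna4, Plxnb1 to Plxnb3, Plxnc1 and Plxnd1) and both neuropilins (Nrp1 and Nrp2). Members were taken by gene symbol, and each of the 31 symbols matched 1 row of the 52636 gene rows in the deposited table of read counts. Of the members, 30 passed the filter on low counts that left 17286 genes for testing, and Sema5b did not.

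Polyadenylated RNA was sequenced from 6 tumours of the genotype BrafCA;Cdkn2af/f; Arf6Q67L and 4 control tumours of the genotype BrafCA;Cdkn2af/f. All 10 tumours therefore carried BrafCA, a Braf allele that Cre recombinase switches to an activated form, and Cdkn2a alleles flanked by loxP sites. The Arf6Q67L product is a mutant ARF6, a small GTPase of membrane traffic, that stays bound to GTP and so stays active. The labels do not give the source of Cre, the cell type it acted in, or the age and sex of the mice.

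Semaphorins share a sema domain and were first known for steering growing axons. Class 3 semaphorins are secreted and mostly bind a neuropilin that sits beside a plexin A or plexin D1, while classes 4 to 7 are held in the membrane and bind plexins directly. The plexin's inner part acts on small GTPases of the Ras and Rap type, and from there on the actin cytoskeleton and integrin adhesion. In blood vessels the ligand Sema3e binds plexin D1 without a neuropilin, and a part of that signal runs through ARF6.

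Total counts per tumour lay between 28635414 and 40869091, and levels are given as CPM (counts scaled to a common library size), normalised by the trimmed mean of M values (TMM). At this depth, 3 counts, the limit that a count of 0 allows, correspond to 0.0734 to 0.105 CPM, which covers counting error only. Arf6 itself averaged 104 ± 21.3 CPM in Arf6Q67L tumours and 93.01 ± 17.4 CPM in controls (SD, n = 6 and 4), and a count of reads cannot show its base change. Of 8 melanocyte and melanoma markers, Tyr and Dct were at 0 counts in all 10 tumours and Tyrp1, Pmel and Mlana stayed under 1 CPM in all of them. Mitf was present at 11.1 to 26.1 CPM in Arf6Q67L tumours and 12.02 to 20.2 CPM in controls, Rab27a, which moves pigment granules and also serves in white blood cells, at 1.599 to 9.71 CPM in Arf6Q67L tumours and 4.44 to 23.8 CPM in controls, and Sox10 reached at most 2.83 CPM. The genes of pigment synthesis and of the pigment granule's core, Tyr, Tyrp1, Dct, Pmel and Mlana, were thus at or near 0 in the labelled tissue. In bulk tumours fewer cells of a type and less RNA per cell cannot be told apart, and this holds for every level that follows. On principal components of all tested genes, component 1 (25.8% of the variance) placed control 4 farthest out. Arf6Q67L libraries carry the lower library numbers and control libraries the higher ones, so that the effect of genotype and that of library order cannot be told apart.

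The class 3 genes of chromosome 5 stand near each other, in the order Sema3d, Sema3a, Sema3e and Sema3c on the plus strand between bases 12383385 and 17730268 of GRCm38. Their promoter windows are shown because these neighbours differed in level, and that of Sema7a because it was the highest member. Each window runs from 250 bases before to 50 bases after a RefSeq start site of GRCm38.p6, on the plus strand, and capitals mark motif matches on either strand. The windows lie at chr5:12382916-12383215, plus strand (Sema3d), chr5:13396534-13396833, plus strand (Sema3a), chr5:14025026-14025325, plus strand (Sema3e), chr5:17574566-17574865, plus strand (Sema3c) and chr9:57939862-57940161, plus strand (Sema7a).
Sema3d: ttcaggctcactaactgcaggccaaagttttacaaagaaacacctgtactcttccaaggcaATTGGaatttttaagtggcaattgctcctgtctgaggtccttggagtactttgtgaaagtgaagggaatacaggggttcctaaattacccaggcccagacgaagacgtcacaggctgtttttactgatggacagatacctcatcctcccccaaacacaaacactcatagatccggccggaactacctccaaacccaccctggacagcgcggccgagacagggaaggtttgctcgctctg
Sema3a: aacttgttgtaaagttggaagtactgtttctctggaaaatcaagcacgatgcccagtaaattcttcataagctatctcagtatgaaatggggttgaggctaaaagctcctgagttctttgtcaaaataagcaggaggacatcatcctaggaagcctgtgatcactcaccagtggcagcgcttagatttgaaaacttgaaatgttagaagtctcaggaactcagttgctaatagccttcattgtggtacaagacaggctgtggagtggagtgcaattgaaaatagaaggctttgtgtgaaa
Sema3e: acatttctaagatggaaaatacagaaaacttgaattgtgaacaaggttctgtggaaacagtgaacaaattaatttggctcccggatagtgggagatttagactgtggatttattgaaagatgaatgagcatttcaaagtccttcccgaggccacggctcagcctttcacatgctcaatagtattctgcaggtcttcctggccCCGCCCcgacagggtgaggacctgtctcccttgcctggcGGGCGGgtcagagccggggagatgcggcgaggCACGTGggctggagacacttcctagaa
Sema3c: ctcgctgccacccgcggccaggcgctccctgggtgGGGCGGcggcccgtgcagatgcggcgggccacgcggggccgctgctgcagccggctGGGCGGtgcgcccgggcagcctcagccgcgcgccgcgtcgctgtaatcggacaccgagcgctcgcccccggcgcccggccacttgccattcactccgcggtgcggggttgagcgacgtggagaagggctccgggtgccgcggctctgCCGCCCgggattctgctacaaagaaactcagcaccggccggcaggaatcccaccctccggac
Sema7a: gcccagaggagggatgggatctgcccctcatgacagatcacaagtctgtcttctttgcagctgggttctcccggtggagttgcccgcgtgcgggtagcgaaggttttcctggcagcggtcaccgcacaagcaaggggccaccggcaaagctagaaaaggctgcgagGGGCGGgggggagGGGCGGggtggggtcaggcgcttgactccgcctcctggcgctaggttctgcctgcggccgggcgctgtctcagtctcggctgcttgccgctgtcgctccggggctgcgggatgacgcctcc

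The motifs searched were the E-box CACGTG, the AP-1 site TGANTCA, the TATA box TATAAA, the CCAAT box CCAAT and the GC box GGGCGG, none of which contains another. The Sema3d window held 1 CCAAT box, a motif found in 37.4% of all 32851 windows of the same length. The Sema3a window lies inside the annotated gene, which starts at base 13125414, and so marks an internal start. The Sema3c window likewise lies inside its gene, which starts at base 17574281, and the Sema3d window ends before its gene's annotated start at base 12383385. The Sema3a window held none of the 5 motifs and 2 CpG pairs, against a median of 7 CpG pairs in all windows. In the Sema3e window stood 2 GC boxes and 1 E-box, and the Sema3c and Sema7a windows held 3 and 2 GC boxes. GC boxes occurred in 35.7% of all windows, E-boxes in 7.15%, AP-1 sites in 7.81% and TATA boxes in 13.6%. GC content was 49.7% for Sema3d, 41.3% for Sema3a, 50.7% for Sema3e, 75.7% for Sema3c and 67.3% for Sema7a, against a median of 52.7%. A match describes the letters of a window and does not show that a factor binds there. A window was found for 26 of the 31 members.

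Levels of different genes were compared as RPKM, which is CPM divided by the annotated exon length in kilobases. Sema7a, a ligand anchored to the membrane by a lipid that binds plexin C1 and an integrin, was the highest member in each of the 10 tumours, at 135 ± 52.1 RPKM (SD, n = 10). Plxnb2, a receptor of class 4 semaphorins, ranked second in each tumour at 45.02 ± 8.19 RPKM. Sema3a at 26.3 ± 9.75 RPKM and Nrp2 at 25.3 ± 9.38 RPKM followed and were not told apart, since Sema3a exceeded Nrp2 in 6 of 10 tumours. Sema4c (21.5 RPKM), Plxna1 (17.96 RPKM), Sema5a (17.2 RPKM), Sema4b (14.8 RPKM), Plxnd1 (11.9 RPKM) and Sema6d (10.9 RPKM) came next. Among these 6, Sema4c exceeded Plxna1 in 9 of 10 tumours, while Plxna1 exceeded Sema5a in only 5.

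From Sema6a (7.09 RPKM) and Nrp1 (5.66 RPKM) down to Sema4g (1.92 RPKM) the order of neighbours changed between tumours, with each member above the next in 3 to 8 of 10. The lowest members were Sema3g (1.02 RPKM), Sema3e (0.786 RPKM), Plxnb1 (0.721 RPKM), Plxnc1 (0.703 RPKM), Sema6c (0.512 RPKM), Plxnb3 (0.343 RPKM), Sema3d (0.317 RPKM), Sema4f (0.225 RPKM) and Sema5b (0.0240 RPKM). Sema5b had 3 to 10 counts in each tumour. Among the 17286 genes tested, Sema7a stood at the percentile 98.3 of mean level, Plxnb2 at 94.1, Sema3a at 88.6 and Sema3d at 11.6.

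**Figure D1:**
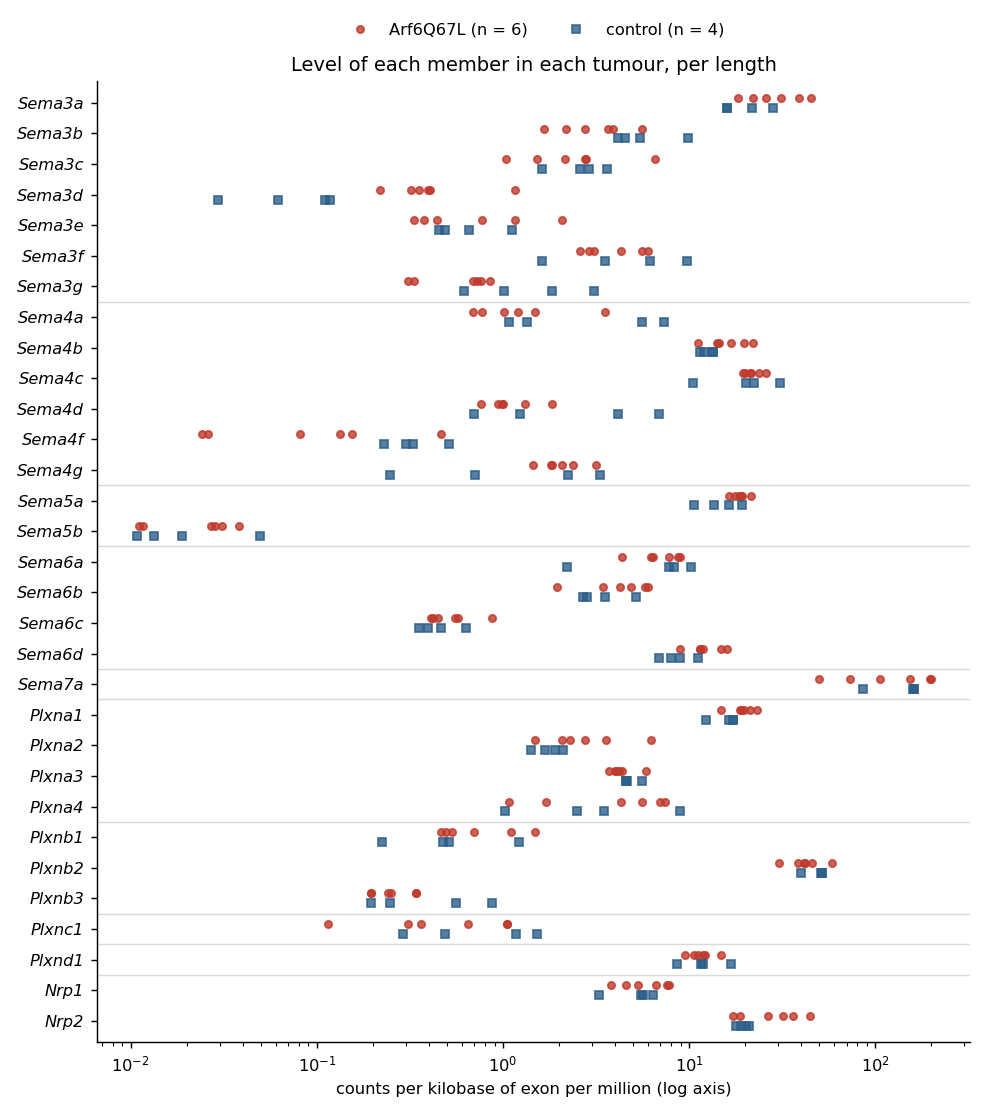
Level of each of the 31 members in each tumour, in RPKM on a log axis, with 6 Arf6Q67L tumours as red circles and 4 controls as blue squares. Sema7a lies highest at 50.05 to 198 RPKM, and Sema3d is the member whose red circles all lie to the right of the blue squares.

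Several known ligand and receptor pairs sat at unequal levels. Sema7a was accompanied by little of its receptor Plxnc1, at 0.115 to 1.53 RPKM, whereas the genes of its integrin receptor, Itga1 and Itgb1, averaged 57.4 and 324 RPKM. Sema4d and its high-affinity receptor Plxnb1 were both low, at 1.98 and 0.721 RPKM. Sema4c and its receptor Plxnb2 were both among the upper members. Sema3e was low at 0.786 RPKM beside its receptor Plxnd1 at 11.9 RPKM, and Sema5a stood at 17.2 RPKM beside its receptor Plxnb3 at 0.343 RPKM. These are levels of RNA in whole tumours and do not show which cells held ligand or receptor.

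Against controls, edgeR's quasi-likelihood test called no member in Arf6Q67L tumours at an adjusted p of 0.05, where 0% of the 17286 genes passed. At an unadjusted p under 0.05, 3 of the 30 tested members were higher (Sema3d, Sema6d and Nrp2), where 4.65% of all genes tested were higher. At the same level 4 members were lower (Sema3b, Sema3g, Sema4a and Sema4d), where 7.05% of all genes were lower. These 7 members comprised 6 of 19 semaphorins, 0 of 9 plexins and 1 of 2 neuropilins. DESeq2 called 1 member higher, Sema3d, where it called 1.01% of all genes higher, and 0 members lower, where it called 1.49% lower. The limma-voom fit with sample weights called 0 members. Groups did not overlap for 1 member, Sema3d, with all Arf6Q67L tumours above all controls, as for 1.15% of all genes, and for 0 members in the other direction, where 1.28% of all genes lay.

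Fold changes were positive for 17 of the 30 tested members and negative for 13, with a median log2 fold change of 0.12 against -0.0018 for all genes tested. The median size of the change, without its sign, was 0.37 on the log2 scale for the members and 0.19 for all genes. Semaphorins spread most, from -1.51 for Sema4d to 2.58 for Sema3d. Plexins ranged from -0.84 for Plxnb3 to 0.79 for Plxna2.

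**Figure D2:**
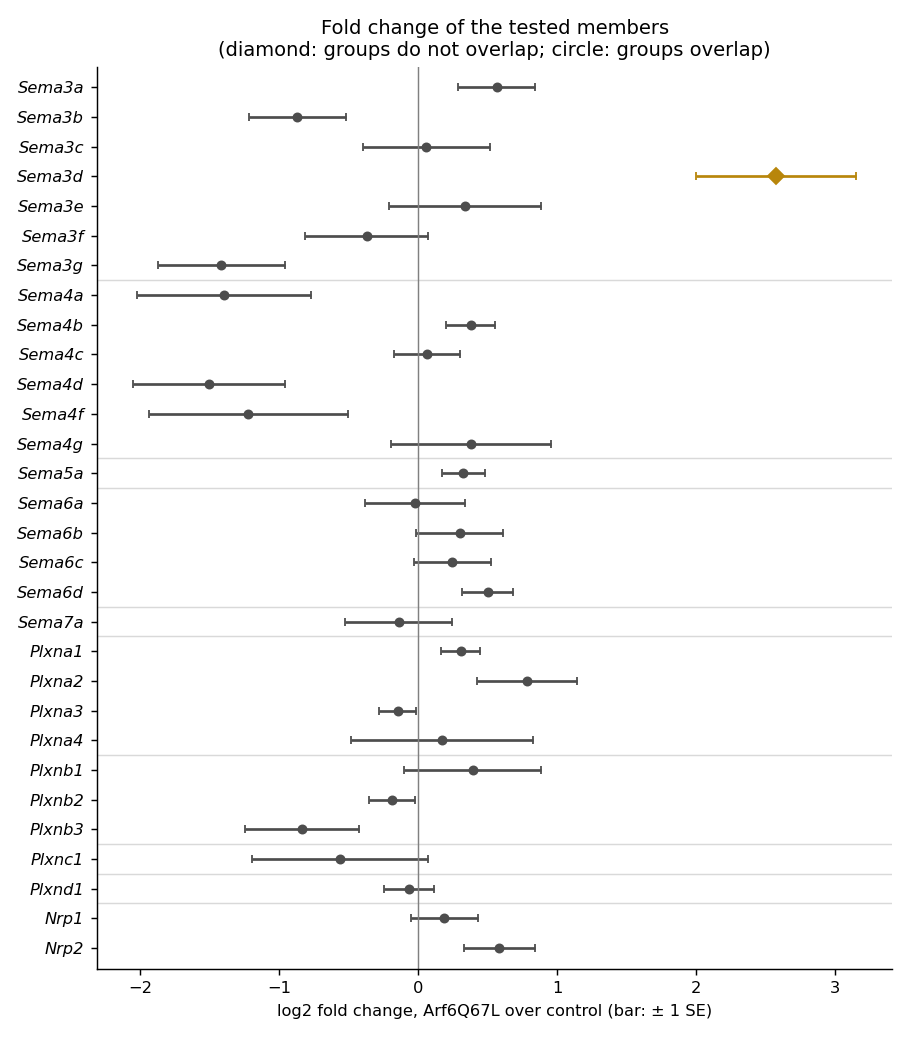
Log2 fold change of the 30 tested members, Arf6Q67L over control, from edgeR (bars: 1 SE to each side). Sema3d lies farthest to the right at 2.58 and is the only member whose groups did not overlap, and Sema4d lies farthest to the left at -1.51.

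Sema3d, a secreted class 3 ligand that binds neuropilin 1, had the largest fold change of the members. It is gene ENSMUSG00000040254, at chr5:12383385-12588948 on the plus strand of GRCm38, and stood at 2.76, 1.88, 3.03, 3.48, 3.38 and 10.01 CPM in the 6 Arf6Q67L tumours, against 0.254, 0.534, 0.951 and 1.01 CPM in the 4 controls. All Arf6Q67L tumours lay above all controls, Arf6Q67L tumour 6 being the highest by far. The counts behind these values were 102, 68, 95, 111, 130 and 350 in Arf6Q67L tumours, against 10, 17, 27 and 30 in controls. The fitted log2 fold change was 2.58 (SE 0.58), for which edgeR gave an adjusted p of 0.233 and DESeq2 one of 0.000807. By edgeR's p it ranked 73 among all genes tested. Without Arf6Q67L tumour 6 the log2 fold change was 2.09, still higher in each of the 5 Arf6Q67L tumours left. Mast cell markers, 4 genes summed, stood at 35.1, 269, 68.96, 36.4, 27.9 and 469 CPM in the Arf6Q67L tumours, against 5.91, 42.5, 5.78 and 11.5 CPM in the controls. All 4 markers were higher at an unadjusted edgeR p under 0.05, where 4.65% of all genes tested were higher. DESeq2 called 3 of them, where it called 1.01% of all genes higher. Fcer1a, 1 of the 4, had 2.49 to 14.9 CPM in Arf6Q67L tumours and 0.317 to 1.98 CPM in controls. Its groups did not overlap, as for 1.15% of all genes with Arf6Q67L above. Arf6Q67L tumour 6 was the highest for the marker sum as well. Arf6Q67L tumour 2 was next for these markers, at 269 CPM, but had the lowest Sema3d of its group, at 1.88 CPM. Control 2, with markers at 42.5 CPM, lay above Arf6Q67L tumours 1, 4 and 5 but had less Sema3d, at 0.534 CPM. The part of mast cells in the Sema3d level was not tested.

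The neighbours of Sema3d on chromosome 5 had overlapping groups. Sema3a, which repels axons and vessel cells through neuropilin 1 and plexins A, stood at 433, 624.8, 538, 306, 357 and 253 CPM in the 6 Arf6Q67L tumours, against 219.99, 220.2, 302 and 389 CPM in the 4 controls. Arf6Q67L tumours 1 to 3 exceeded every control, and the other three lay within the range of the controls. Sema3a had a log2 fold change of 0.57 (SE 0.28), at an edgeR adjusted p of 0.459. Sema3e, the ligand of plexin D1, stood at 3.09, 19.2, 7.18, 10.7, 3.49 and 4.12 CPM in the 6 Arf6Q67L tumours, against 4.21, 4.53, 10.4 and 6.11 CPM in the 4 controls. Arf6Q67L tumour 2 was highest and every control lay within the range of the Arf6Q67L tumours, with a log2 fold change of 0.34 (SE 0.55), which turned to -0.14 without that tumour. Sema3c, which acts in neural crest and heart outflow development, ranged over 7.42 to 46.7 CPM in Arf6Q67L tumours and 11.6 to 25.9 CPM in controls, with a log2 fold change of 0.06 (SE 0.46).

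**Figure D3:**
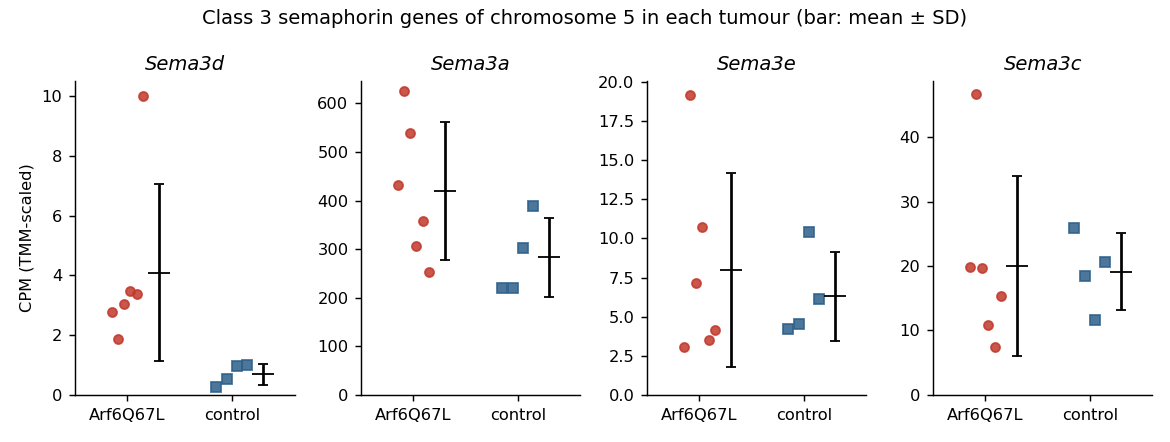
CPM of the 4 class 3 semaphorin genes of chromosome 5 in 6 Arf6Q67L tumours (red circles) and 4 controls (blue squares), each panel on its own linear axis from 0, with bars for mean and SD. Groups are apart for Sema3d, with 1.88 to 10.01 CPM in Arf6Q67L tumours and 0.254 to 1.01 CPM in controls, and overlap in the other three panels.

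The class 3 genes outside chromosome 5 had lower mean levels in Arf6Q67L tumours. Sema3b and its chromosome 9 neighbour Sema3f are both described as growth suppressors in human lung tumours. Sema3b stood at 13.2, 18.7, 26.6, 17.4, 10.4 and 7.89 CPM in the 6 Arf6Q67L tumours, against 21.7, 25.999, 19.9 and 47.1 CPM in the 4 controls. Control 4 was highest and 5 of 6 Arf6Q67L tumours lay below every control. The log2 fold change was -0.87 (SE 0.35), with an adjusted p of 0.392 by edgeR. It was -0.51 without control 4, a change of over 1.5 times. Sema3f ranged over 13.4 to 31.2 CPM in Arf6Q67L tumours and 8.39 to 50.8 CPM in controls, so that the controls spanned the Arf6Q67L tumours, with a log2 fold change of -0.37 (SE 0.44).

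Sema3g, a ligand of neuropilin 2 that is known from the endothelium, stood at 1.41, 3.31, 1.5004, 3.89, 3.44 and 3.12 CPM in the 6 Arf6Q67L tumours, against 8.32, 4.59, 13.95 and 2.78 CPM in the 4 controls. Controls 1 and 3 were high and control 4 lay within the range of the Arf6Q67L tumours. This gave a log2 fold change of -1.42 (SE 0.46), adjusted p 0.322 by edgeR and 0.0811 by DESeq2. Without control 3 it was -0.91, over 1.5 times closer to 0. Blood endothelium markers, 7 genes summed, stood at 261, 146, 116, 159, 69.3 and 88.1 CPM in the Arf6Q67L tumours, against 296, 175, 236 and 124 CPM in the controls. Of the 7, 6 were negative in fold change, as were 8702 of all 17286 genes tested. At an unadjusted edgeR p under 0.05, 4 were lower, where 7.05% of all genes were lower. Controls 1 and 3 were the highest controls for these markers too. Arf6Q67L tumour 1, at 261 CPM, lay above control 3 for the markers but had the lowest Sema3g, at 1.41 CPM. Cdh5 alone gave 184 CPM of the marker sum in that tumour. The part of endothelium in the Sema3g level was not tested.

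Class 4 held a pair of immune ligands that were high in the same 2 controls. Sema4d, known as CD100 on T cells and a ligand of plexin B1 and CD72, stood at 7.23, 7.61, 5.87, 14.01, 10.1 and 7.69 CPM in the 6 Arf6Q67L tumours, against 5.38, 31.8, 9.51 and 52.7 CPM in the 4 controls. Controls 2 and 4 were high, and controls 1 and 3 lay among or near the Arf6Q67L tumours. The Sema4d log2 fold change of -1.51 (SE 0.55) had an edgeR adjusted p of 0.361. Sema4a, which acts on T cell priming, stood at 5.50, 3.75, 4.15, 19.1, 8.04 and 6.52 CPM in the 6 Arf6Q67L tumours, against 7.25, 29.99, 5.81 and 39.7 CPM in the 4 controls. Controls 2 and 4 again stood apart, with Arf6Q67L tumour 4 next, and the log2 fold change was -1.40 (SE 0.63) with an adjusted p of 0.425 by edgeR.

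Markers of T cells, 6 genes summed, were high in the same 2 controls, at 12.9, 24.5, 17.05, 71.5, 57.8 and 37.1 CPM in the Arf6Q67L tumours, against 29.2, 185, 24.7 and 261 CPM in the controls. All 6 of these markers had a negative fold change, as had 8702 of all 17286 genes tested. At an unadjusted edgeR p under 0.05, 4 of them were lower, where 7.05% of all genes were lower. Macrophage markers, another 6 genes, ranged over 619 to 1485 CPM in Arf6Q67L tumours and 1005 to 2544 CPM in controls, with controls 4 and 2 the highest of all tumours. B cell markers, 4 genes, ranged over 1.19 to 7.61 CPM in Arf6Q67L tumours and 1.59 to 18.2 CPM in controls. With controls 2 and 4 left out, an alternative chosen after seeing the data, the log2 fold change was 0.23 for Sema4d and 0.27 for Sema4a. The lower level of this pair thus rested on those 2 controls, and the part of T cells in it was not tested. Without control 4 alone the values were -0.82 for Sema4d and -0.86 for Sema4a.

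**Figure D4:**
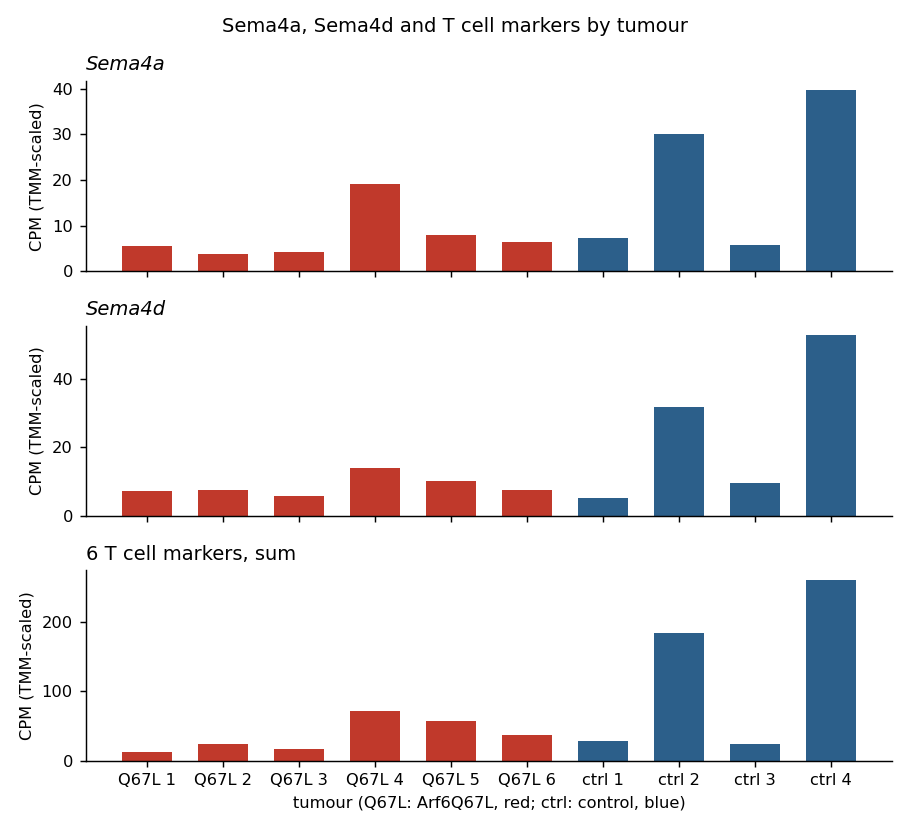
CPM of Sema4a, Sema4d and the sum of 6 T cell markers in each tumour, as bars from 0, with 6 Arf6Q67L tumours in red and 4 controls in blue. Controls 2 and 4 have the tallest bars in all 3 panels, and Arf6Q67L tumour 4 is the highest of the red bars in each.

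The remaining class 4 genes are membrane ligands of plexins B. Sema4b ranged over 62.6 to 124 CPM in Arf6Q67L tumours and 64.4 to 75.8 CPM in controls, with 5 of 6 Arf6Q67L tumours above every control and the other below all of them, a log2 fold change of 0.38 (SE 0.18) and an adjusted p of 0.444 by edgeR. Sema4c, a ligand of plexin B2, averaged 101 ± 10.96 CPM in Arf6Q67L tumours and 96.2 ± 38.2 CPM in controls (SD, n = 6 and 4). In Sema4c, 7.27% of the exon length overlaps a gene on the other strand, and the strand setting of the counting is not given in the sources used here. Sema4g, likewise a plexin B2 ligand, ranged over 12.5 to 27.4 CPM in Arf6Q67L tumours and 2.15 to 28.6 CPM in controls, with the controls spanning the Arf6Q67L tumours. Sema4f, a brain ligand, stayed at or under 2.70 CPM in each tumour and had 4 to 78 counts in Arf6Q67L tumours and 36 to 86 in controls. Sema4f had a log2 fold change of -1.22 (SE 0.72), with 5 of 6 Arf6Q67L tumours below every control and an adjusted p of 0.543 by edgeR. It was -2.02 without Arf6Q67L tumour 4, over 1.5 times larger.

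Class 5 to 7 semaphorins carried most of the ligand RNA per length. Sema5a, a membrane protein with thrombospondin repeats, ranged over 305 to 401 CPM in Arf6Q67L tumours and 198 to 359.7 CPM in controls, with a log2 fold change of 0.33 (SE 0.16) and an adjusted p of 0.456 by edgeR. Sema6d, a ligand of plexin A1 in heart development, stood at 168, 156, 119.97, 94.4, 125 and 120.3 CPM in the 6 Arf6Q67L tumours, against 94.5, 84.6, 118 and 72.3 CPM in the 4 controls. Of the Arf6Q67L tumours 5 of 6 exceeded every control, control 3 lay just below those 5, and Arf6Q67L tumour 4 lay within the controls. The Sema6d log2 fold change was 0.50 (SE 0.18) at an edgeR adjusted p of 0.360, and 0.30 without controls 2 and 4.

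Sema6a, a ligand of plexins A2 and A4, averaged 61.9 ± 15.03 CPM in Arf6Q67L tumours and 62.8 ± 30.3 CPM in controls (SD, n = 6 and 4). Sema6b, a ligand of plexin A4, ranged over 7.78 to 23.7 CPM in Arf6Q67L tumours and 10.6 to 20.6 CPM in controls, with a log2 fold change of 0.30 (SE 0.31). Sema6c, the low member of its class, ranged over 2.44 to 5.18 CPM in Arf6Q67L tumours and 2.11 to 3.74 CPM in controls, with a log2 fold change of 0.25 (SE 0.27), and 0.069 without Arf6Q67L tumour 6. Sema7a stood at 654, 241, 646, 505, 350.4 and 165 CPM in the 6 Arf6Q67L tumours, against 528, 534, 534 and 283 CPM in the 4 controls. Both extremes were Arf6Q67L tumours, 3 of the controls lay close together, and control 4 was the low one. The log2 fold change was -0.14 (SE 0.39), with an adjusted p of 0.923 by edgeR.

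Plexins of the A type serve as receptors for class 3 semaphorins with neuropilins and for class 6 semaphorins directly. Plxna1 stood at 179, 169, 191, 134, 209.5 and 173 CPM in the 6 Arf6Q67L tumours, against 148, 155, 155 and 111 CPM in the 4 controls. Of the Arf6Q67L tumours 5 of 6 exceeded every control, with a log2 fold change of 0.31 (SE 0.14) and an adjusted p of 0.430 by edgeR. An antisense gene overlaps 10.7% of the Plxna1 exon length, so their reads cannot be told apart without the strand setting, as for 2.68% of the Plxnb1 and 0.78% of the Plxna4 exon length. Plxna2 stood at 107, 47.3, 39.3, 25.5, 35.5 and 61.5 CPM in the 6 Arf6Q67L tumours, against 24.4, 36.2, 32.7 and 28.9 CPM in the 4 controls. Arf6Q67L tumour 1 was highest by far, and 4 of 6 Arf6Q67L tumours exceeded every control. The log2 fold change was 0.79 (SE 0.36), with an adjusted p of 0.435 by edgeR, and 0.45 without Arf6Q67L tumour 1, over 1.5 times smaller. Plxna3, on the X chromosome, averaged 34.4 ± 6.02 CPM in Arf6Q67L tumours and 38.1 ± 3.81 CPM in controls (SD, n = 6 and 4), and Plxna4 ranged widely over 15.2 to 105 CPM in Arf6Q67L tumours and 14.5 to 126 CPM in controls.

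Plexins of the B type bind class 4 semaphorins and pass the signal to RhoA through exchange factors. Plxnb2 stood at 296, 353, 449, 323, 319 and 236 CPM in the 6 Arf6Q67L tumours, against 397, 399.7, 395 and 308 CPM in the 4 controls. Controls 1 to 3 lay close together, Arf6Q67L tumour 3 was highest of all, and the log2 fold change was -0.19 (SE 0.16). Plxnb1 ranged over 4.44 to 14.2 CPM in Arf6Q67L tumours and 2.15 to 11.7 CPM in controls, with a log2 fold change of 0.39 (SE 0.49). It was 0.12 without Arf6Q67L tumour 6, 0.98 without control 3 and -0.083 without controls 2 and 4. Plxnb3, a receptor of Sema5a on the X chromosome, ranged over 1.27 to 2.22 CPM in Arf6Q67L tumours and 1.27 to 5.64 CPM in controls. Plxnb3 had a log2 fold change of -0.84 (SE 0.41) at an edgeR adjusted p of 0.459, and it was 0.24 without controls 2 and 4, where it was highest.

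Plxnc1, the Sema7a receptor known from melanocytes and white blood cells, ranged over 0.958 to 8.81 CPM in Arf6Q67L tumours and 2.41 to 12.8 CPM in controls. It was highest in controls 4 and 2, as the T cell and macrophage markers were, and its log2 fold change of -0.56 (SE 0.64) was 0.60 without them. Plxnd1, the Sema3e receptor of vessels, averaged 85.4 ± 13.4 CPM in Arf6Q67L tumours and 89.3 ± 24.9 CPM in controls (SD, n = 6 and 4). The difference was -0.07 (SE 0.18) on the log2 scale at an edgeR adjusted p of 0.921.

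Neuropilins bind class 3 semaphorins and also growth factors of the VEGF family. Nrp2 (chr1:62703285-62818695, plus strand of GRCm38) stood at 429.5, 529, 378, 223, 203 and 313 CPM in the 6 Arf6Q67L tumours, against 238, 210.1, 225 and 248 CPM in the 4 controls. Arf6Q67L tumours 1, 2, 3 and 6 exceeded every control, Arf6Q67L tumours 4 and 5 did not, and the controls lay close together. The fold change on the log2 scale was 0.59 (SE 0.26), at an edgeR adjusted p of 0.422. Leaving out 1 tumour at a time gave 0.44 to 0.70. Nrp1 stood at 74.5, 76.5, 44.5, 64.9, 37.4 and 51.9 CPM in the 6 Arf6Q67L tumours, against 32.2, 62.8, 55.4 and 53.98 CPM in the 4 controls, with a log2 fold change of 0.19 (SE 0.24) and an adjusted p of 0.801 by edgeR. Arf6Q67L tumours 1, 2 and 4 exceeded every control and control 1 was lowest, without which the log2 fold change was 0.024.

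Summed over classes, no class separated the genotypes, and sums were described without a test. Class 3 semaphorins summed to 490.5 ± 162 CPM in Arf6Q67L tumours (307 to 744) and 372 ± 85.4 CPM in controls (293 to 475). The mean difference of their log2 sums was 0.36 in CPM and 0.17 with each gene taken per length, and most of the sum was Sema3a. Class 4 summed to 229 ± 27.7 CPM in Arf6Q67L tumours (186 to 259) and 229 ± 15.5 CPM in controls (212 to 245), a log2 difference of -0.01. Class 6 differed by 0.35, plexins A by 0.30 and plexins B by -0.20 on the log2 scale. Neuropilins summed to 404 ± 136 CPM in Arf6Q67L tumours (240.2 to 605) and 281 ± 14.4 CPM in controls (270.4 to 302), a log2 difference of 0.45. All plexins together summed to 756 ± 93.7 CPM in Arf6Q67L tumours (652 to 907) and 748 ± 113 CPM in controls (582 to 828), a log2 difference of 0.02.

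Per length, the share of Sema7a in all semaphorin RNA was 59.5, 31.4, 59.3, 57.5, 45.9 and 32.3% in the Arf6Q67L tumours, against 59.8, 59.1, 55.3 and 44.9% in the controls. Its share was lowest in Arf6Q67L tumours 2 and 6 and in controls lowest in control 4. The mean shares were 47.7% ± 13.2 in Arf6Q67L tumours and 54.7% ± 6.86 in controls (SD, n = 6 and 4). The share of plexins A in all plexin RNA per length was 42.8, 34.3, 34.9, 31.01, 35.7 and 36.7% in the Arf6Q67L tumours, against 32.8, 29.4, 27.9 and 27.7% in the controls, and control 1 lay inside the range of the Arf6Q67L tumours. Within them, the share of Plxna1 among all plexins was 18.6% to 26.7% in Arf6Q67L tumours and 17.1% to 18.4% in controls, without overlap. This share was singled out after its values were seen. Of 31 member shares, 2 (Plxna1 and Sema3d) had all Arf6Q67L tumours above all controls, with 0 below, and no rate over all genes was computed for shares. Sema3d was apart in CPM as well, whereas the groups of Plxna1 overlapped in CPM. The Plxna1 share also depends on Plxnb2, which made up 40.1% to 56.4% of the plexin sum. The share of Nrp2 in neuropilin RNA per length was 73.9% to 87.5% in Arf6Q67L tumours and 73.4% to 85.9% in controls.

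**Figure D5:**
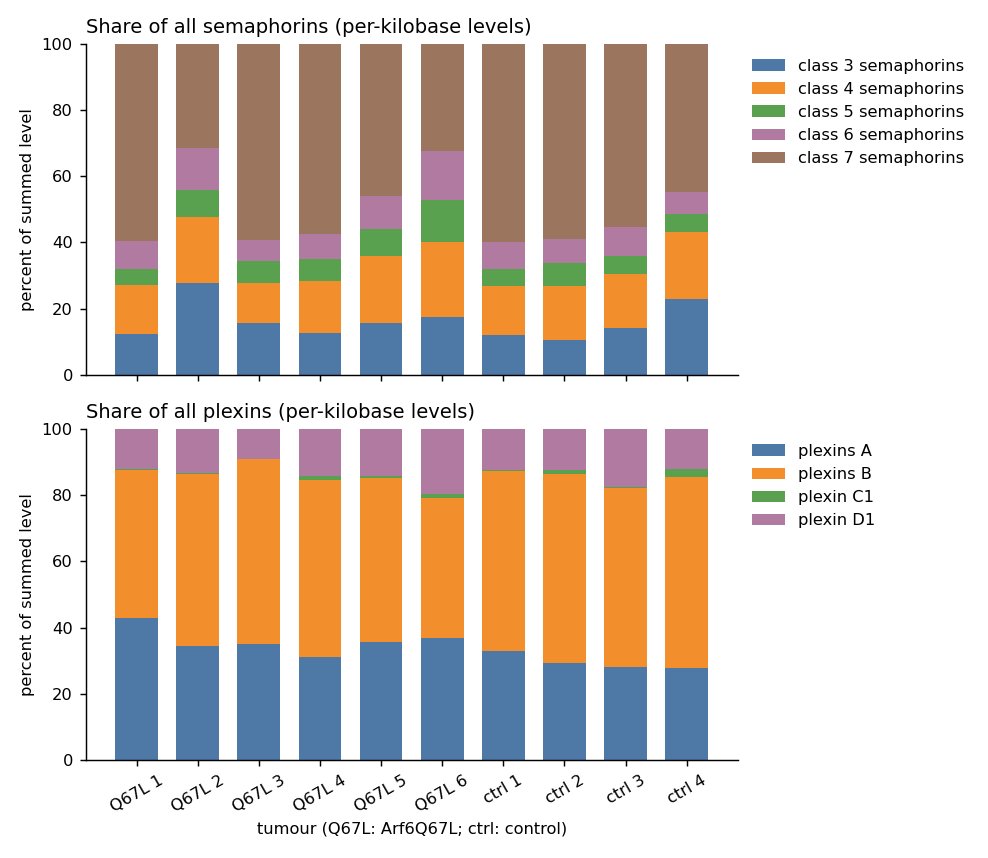
Share of each semaphorin class in all semaphorins (upper panel) and of each plexin class in all plexins (lower panel), in percent of summed RPKM, for 6 Arf6Q67L tumours at the left and 4 controls at the right. Class 7, which is Sema7a, takes 31.4% to 59.8% of the semaphorin sum, and plexins A take 31.01% to 42.8% in Arf6Q67L tumours and 27.7% to 32.8% in controls.

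A list of 60 partner genes of the pathway was read from the same fit, and 57 were tested. By edgeR 0 passed at an adjusted p of 0.05, with 3 higher and 7 lower at an unadjusted p under 0.05, where 4.65% of all genes were higher and 7.05% lower. Their fold changes were positive for 33 and negative for 24, with a median log2 fold change of 0.05 against -0.0018 for all genes. Of all genes tested, 8584 were positive and 8702 negative. DESeq2 called 2 of them lower, Mical1 and Cd72, where it called 1.49% of all genes lower, and limma-voom called 0. Mical1, an enzyme that oxidises actin downstream of plexins, averaged 15.2 ± 1.997 CPM in Arf6Q67L tumours and 22.7 ± 1.28 CPM in controls (SD, n = 6 and 4). Each of the 6 Arf6Q67L tumours lay below every control. The log2 fold change was -0.58 (SE 0.12), with an adjusted p of 0.233 by edgeR and 0.000572 by DESeq2. Its relatives Mical2 and Mical3 had log2 fold changes of 0.36 (SE 0.27) and 0.30 (SE 0.14), and Dpysl2, a collapsin response mediator, of -0.10 (SE 0.27).

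Among coreceptors, of which 13 were tested, 5 were positive and 8 negative, with 4 lower at an unadjusted p under 0.05, against 7.05% of all genes. Cd72, the Sema4d receptor of B cells, ranged over 4.03 to 23.9 CPM in Arf6Q67L tumours and 15.4 to 161 CPM in controls, with controls 4 and 2 again highest. For Cd72 the log2 fold change was -2.35 (SE 0.70), at an adjusted p of 0.287 by edgeR and 0.0284 by DESeq2. Tyrobp, the immune adaptor that works with plexin A1 and Trem2, had a log2 fold change of -1.09 (SE 0.40) at an edgeR adjusted p of 0.361, and controls 4 and 2 were highest for it too, at 302 and 158 CPM. The receptor kinases Met and Erbb2, which associate with plexins B, had 0.58 (SE 0.26) and 0.24 (SE 0.16).

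Of the 12 GTPases, 8 were positive and 4 negative. The R-Ras relatives Mras and Rras2 had log2 fold changes of -0.46 (SE 0.19) and 0.15 (SE 0.14), Rnd2 one of 0.27 (SE 0.28) and Rap1a one of -0.06 (SE 0.11). Of 14 exchange factors, kinases and adaptors, 10 were positive and 4 negative. The adaptor Gipc1, which binds the tails of neuropilin 1 and plexin D1, had 0.28 (SE 0.10) and the RhoA exchange factor Arhgef12, which binds plexins B, had 0.39 (SE 0.17). Sh3bp1 had -0.48 (SE 0.20), and the kinase Fyn -0.25 (SE 0.22). The lowest edgeR adjusted p in these groups was 0.361, for Gipc1.

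The ARF6 branch of plexin D1 signalling (Arf6, Iqsec1, Pip5k1a, Pip5k1b, Pip5k1c and Itgb1) had positive fold changes in 6 of 6 genes, with a median of 0.18 on the log2 scale. Of all 17286 genes tested, 8584 were positive. Only 1 of the 6, Pip5k1c, was higher at an unadjusted edgeR p under 0.05, where 4.65% of all genes were higher. Arf6 is the gene of the engineered allele, and Itgb1 is also counted among the coreceptors. Pip5k1c, a lipid kinase that feeds integrin turnover, averaged 124 ± 21.4 CPM in Arf6Q67L tumours and 97.9 ± 4.57 CPM in controls (SD, n = 6 and 4). Of the Arf6Q67L tumours 5 exceeded every control and 1, tumour 4, lay below all of them. The log2 fold change was 0.34 (SE 0.13), with an adjusted p of 0.381 by edgeR. Pip5k1b was low, at 0.651 to 3.29 CPM in Arf6Q67L tumours and 0.268 to 2.22 CPM in controls. Groups overlapped for each of these 6 genes. Of 7 other neuropilin ligands, 1 was positive and 6 negative, with log2 fold changes of -0.58 (SE 0.61) for Vegfa, -0.64 (SE 0.60) for Pgf and 0.38 (SE 0.30) for Vegfc.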

How the data were processed

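Polyadenylated RNA from 6 Arf6Q67L and 4 control tumours was purified with Qiagen's RNeasy Plus Universal kit and made into stranded Illumina TruSeq libraries, per the labels' protocols. The authors deposited raw read counts per gene, not normalised, in 1 table with 52636 Ensembl gene identifiers. Per the submitters' processing notes, which assign no roles, the build was GRCm38 and the tools were featureCounts 1.5.1, STAR 2.5.2b and DESeq2 1.18.0. The sources used here do not give the strand setting or the handling of multi-mapping reads. Each column matched 1 sample's labels and 0 columns were unused.

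Symbols were found for 52403 identifiers in the GENCODE annotation of GRCm38, which also gave exon lengths. Genes passing filterByExpr (minimum count 10; 17286 genes) were tested with edgeR 4.0.16 (TMM factors, robust quasi-likelihood fit, Benjamini-Hochberg adjustment over all genes, threshold 0.05) in R 4.3.3. Alternatives were DESeq2 1.42.0, limma 3.58.1 (voom with sample weights), other scaling factors, other filters and leaving tumours out. The procedure was tested on simulated data. Promoter windows come from RefSeq.

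Members, partner genes and cell type markers were chosen with earlier results of these data known. All members are accounted for, and in each partner group the text names, for each direction, up to 2 genes with the lowest p. Replicates are separate titles, numbered in accession order. The labels do not tell whether they are separate animals. The p-values set the genotype difference against the spread between these tumours, taken as independent. They could be too small if some tumours came from 1 animal. No pair of libraries of 1 genotype agreed within sampling noise (chi-square per gene at least 70.2).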

Additional observations from a re-analysis of the deposited data

Results flagged for a closer look

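In 80 groups of values (each member and each class sum in each genotype), the highest or lowest tumour was set against its nearest neighbour by Dixon's ratio of gap to range at the 95% level, and 11 stood far from the rest. Chance alone gives such a tumour in about 1 of 20 groups where groups are independent and values normally distributed. Class sums contain their members, so these groups are not independent, and CPM was used without a log scale. Sema3d in Arf6Q67L tumour 6 was highest at 10.01 CPM, the next being 3.48 CPM. Sema6c was highest in the same tumour at 5.18 CPM, the next being 3.41 CPM. Sema3c in Arf6Q67L tumour 2 reached 46.7 CPM, the next being 19.8 CPM. Arf6Q67L tumour 4 was highest for Sema4a at 19.1 CPM and for Sema4f at 2.44 CPM, where the next tumours of its group had 8.04 and 0.812 CPM. Plxna3 was highest in Arf6Q67L tumour 3 at 46.1 CPM among the Arf6Q67L tumours and in control 2 at 43.8 CPM among the controls.

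Control 4 supplied 4 of the 11. It was the lowest control for Sema7a at 283 CPM (next 528 CPM), Plxna1 at 111 CPM (next 148 CPM), Plxnb2 at 308 CPM (next 395 CPM) and the sum of plexins B at 316 CPM (next 403 CPM). That sum is mostly Plxnb2, so the flags for Plxnb2 and for the sum rest largely on the same reads. The same tumour had the highest sums of T cell, macrophage and B cell markers. It was also the highest for skeletal muscle (743 CPM), adipocyte (182 CPM), Schwann cell and nerve (18.9 CPM) and melanocyte and melanoma markers (45.2 CPM). The part of any of these cell types in the low values was not tested.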

How the results depend on the processing

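No paired analysis was possible because the labels give the tumours no shared replicate number, litter or batch across genotypes. By edgeR 0 genes were called in either direction. DESeq2 called 167 higher and 246 lower, of which 1 higher gene was a member (Sema3d, log2 fold change 2.60), and limma-voom called 1 higher and 1 lower. Leaving out 1 tumour gave 0 to 1 genes called higher, 1 being reached without control 1. Without controls 2 and 4 together, chosen after seeing the data, 1 gene was called lower. With library totals alone 328 genes, against 199, had all Arf6Q67L tumours above all controls. By CPM without division by length, Sema3a ranked 2 and Plxnb2 ranked 3 among members.

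Signs turned for several members. By limma-voom Sema3c had -0.090 and Sema4c -0.011, and with library totals Sema6a had 0.044. Leaving out 1 tumour at a time, the ranges were -0.38 to 0.24 for Sema3c, -0.14 to 0.69 for Sema3e, -0.67 to 0.12 for Sema3f, -0.15 to 0.31 for Sema4c, -0.31 to 0.21 for Sema6a, -0.31 to 0.037 for Sema7a, -0.14 to 0.95 for Plxna4 and -0.19 to 0.13 for Plxnd1. The sign held but the value moved by over 1.5 times for Sema4g (0.029 to 0.997), Sema5a (0.20 to 0.47), Sema6b (0.19 to 0.54), Plxna3 (-0.23 to -0.070), Plxnb2 (-0.28 to -0.10), Plxnb3 (-1.09 to -0.34) and Plxnc1 (-0.85 to -0.13). Without controls 2 and 4 the values were 0.27 for Sema4a, -0.22 for Sema4c, 0.23 for Sema4d, -0.38 for Sema4g, -0.46 for Plxna4, -0.083 for Plxnb1, 0.24 for Plxnb3 and 0.60 for Plxnc1. The cause was not tested. Sema3d, Sema3a, Sema3b, Sema3g, Sema6d, Plxna1, Plxna2 and Nrp2 kept their sign under each alternative run. Scaling moved the median of all genes by at most 0.05 on the log2 scale. Depth limits Sema5b, Sema4f, Plxnb3 and Sema3d, the members with the fewest counts.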

Other observations

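The remaining cell type markers are given as sums per tumour. Skeletal muscle markers, 4 genes summed, ranged over 9.61 to 497 CPM in Arf6Q67L tumours and 0.670 to 743 CPM in controls. Fibroblast markers ranged over 1133 to 2579.5 CPM in Arf6Q67L tumours and 1158 to 1978 CPM in controls, lymphatic endothelium markers over 20.9 to 257 CPM in Arf6Q67L tumours and 22.8 to 62.02 CPM in controls, and markers of pericytes and smooth muscle over 108 to 246 CPM in Arf6Q67L tumours and 144 to 232 CPM in controls. The highest lymphatic sum, in Arf6Q67L tumour 3, was mostly Pdpn at 249 CPM, and the lymphatic marker Prox1 reached at most 1.63 CPM in any tumour. Adipocyte markers ranged over 5.46 to 73.1 CPM in Arf6Q67L tumours and 14.2 to 182 CPM in controls, Schwann cell and nerve markers over 10.7 to 17.6 CPM in Arf6Q67L tumours and 13.4 to 18.9 CPM in controls, and keratinocyte markers over 3.78 to 6.15 CPM in Arf6Q67L tumours and 4.19 to 6.24 CPM in controls. None of these lists was set against the members by a test.

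The design has 6 and 4 tumours and gives no batch, and each level is an average over all cells of a tumour. RNA does not show protein at the cell surface, nor the state of a receptor.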
